A study of Mus musculus with 10 samples.

Results

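The mitochondrial ribosomal protein transcripts of cultured mouse peritoneal macrophages were examined in Mac-GsαKO cells and in control cells. By its name Mac-GsαKO is a knockout of the stimulatory G protein subunit Gsα in macrophages. Members were the rows whose mouse symbol is Mrpl (large subunit) or Mrps (small subunit) followed by a number, which are protein-coding and no pseudogene, and which reached a CPM (counts scaled by the library's total) of at least 1 in at least 5 libraries. Of 53465 genes in the table, 83 carried such a symbol, 5 of these were pseudogenes, and the other 78 all passed, 49 of the large and 29 of the small subunit. The CPM minimum therefore removed no member. The one closest to it was Mrpl53, which was at or above it in 9 of 10 libraries and stood at 0.451 CPM in CTR 3. Subunits follow the symbol throughout. The small subunit results therefore include Mrps18a, Mrps30 and Mrps36, whose place differs from their symbol, as given below.

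RNA was sequenced in bulk from peritoneal macrophages of Mac-GsαKO mice (KO, 5 libraries) and of CTR mice (5 libraries), all aged 6 to 8 weeks. All cells were grown in DMEM with 10% serum and antibiotics and received no further treatment. Per its name the mutant lacks Gsα in macrophages, and the sources used here give neither the Cre driver nor the targeted allele nor the exact genotype of CTR. They also leave unsaid whether libraries stem from different mice, so SDs and p-values cover only the variation among the 10 libraries.

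Mitochondrial ribosomes translate the few mRNAs that mitochondrial DNA encodes, nearly all for core subunits of the respiratory chain and ATP synthase. Their RNA comes from mitochondrial DNA, while all their proteins are encoded in the nucleus, made in the cytosol and imported. The small subunit binds the mRNA and reads its codons, and the large subunit forms the peptide bond and feeds the new protein into the inner membrane. Some members descend from bacterial ribosomal proteins and others are found only in mitochondria.

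Libraries held between 16877249 and 19235777 counts in KO and between 15664243 and 18028974 in CTR, and each member had between 8 and 1027 counts in a library. Gnas (ENSMUSG00000027523), which encodes Gsα, stood at 37.0 to 43.5 CPM in the KO libraries and at 359 to 491 CPM in the CTR libraries, 10.8-fold lower in KO (two-sided exact permutation p = 0.00794, the smallest that 252 arrangements allow). A gene-level count of Gnas also covers exons outside any deleted part. CTR 4 and CTR 5 stood apart from the other CTR libraries on the first principal component, both at 34.7 against 6.85 to 18.5, and CTR 4 also on the second, at 46.7 against -25.6 to -9.46. The TMM scaling factor of CTR 4 was 0.908, against 0.994 to 1.026 in the other libraries. The main results on the members are therefore given with and without both. Adgre1, Csf1r, Cd68 and the other macrophage markers were present in every library. Their sum was 14900 to 16500 CPM in KO and 30300 to 38700 CPM in CTR, most of it lysozyme (Lyz2, 8720 to 10000 CPM in KO and 24300 to 33300 CPM in CTR). Of these 11 markers 7 were above 0 in log2 fold change (median 0.21), 2 were called higher and 1, Lyz2, lower. Csf1r had 1150 to 1400 CPM in KO and 796 to 1040 CPM in CTR, and Itgam had 489 to 766 CPM in KO and 256 to 478 CPM in CTR, both without overlap. Summed markers of other cells were 12.2 to 19.5 CPM in KO and 3.24 to 11.6 CPM in CTR for B cells, and 12.4 to 25.4 CPM in KO and 19.0 to 27.8 CPM in CTR for neutrophils. For fibroblasts they were 48.6 to 65.3 CPM in KO and 30.1 to 137 CPM in CTR, with the highest value in CTR 5 and the lowest in CTR 4. Mesothelial markers summed to 11.3 to 17.5 CPM in KO and 4.73 to 32.2 CPM in CTR, again highest in CTR 5, and mast cell markers to 1.45 to 18.3 CPM in KO and 3.31 to 29.3 CPM in CTR. Summed markers of T and NK cells, eosinophils, dendritic and erythroid cells reached at most 9.85 CPM in a library. Of 7 proliferation markers 6 were below 0 in log2 fold change and none was called with all libraries (median -0.47). Without CTR 4 and CTR 5 the median of these markers was -0.65, and 1 was called higher. Their sum was 207 to 254 CPM in KO and 181 to 236 CPM in CTR. Most of it was Pcna, with 183 to 206 CPM in KO and 128 to 179 CPM in CTR without overlap. Of 6 neutrophil markers 2 were tested, both were below 0 in log2 fold change, and 1 was called lower. S100a8 had 9.89 to 15.6 CPM in KO and 17.5 to 23.4 CPM in CTR without overlap. Retnlg had 1.68 to 11.5 CPM in KO and 1.02 to 9.5 CPM in CTR, and the neutrophil marker Ly6g was at 0 in every library. The part of these differences in the results on the members was not tested.

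Compared per length, as the FPKM the authors deposited, the members covered a wide range of levels. In the large subunit the highest were Mrpl34 (51.3 ± 5.34 FPKM in KO and 54.9 ± 8.22 in CTR, SD, n = 5 each), Mrpl43 (36.4 ± 2.35 and 36.5 ± 5.05 FPKM, KO and CTR) and Mrpl54 (22.7 ± 2.21 and 22.1 ± 6.65 FPKM, KO and CTR). The lowest were Mrpl15 (1.02 ± 0.130 FPKM in KO and 0.999 ± 0.272 in CTR), Mrpl23 (1.46 ± 0.207 and 1.63 ± 0.322 FPKM, KO and CTR) and Mrpl53 (1.92 ± 0.761 and 1.19 ± 0.684 FPKM, KO and CTR). In the small subunit Mrps15 led with 15.4 ± 0.610 FPKM in KO and 18.7 ± 3.27 in CTR. It was followed by Mrps21 (11.9 ± 5.82 FPKM in KO and 16.1 ± 4.70 in CTR) and Mrps23 (13.6 ± 3.33 FPKM in KO and 14.3 ± 4.54 in CTR). At the low end stood Mrps35 (1.35 ± 0.114 FPKM in KO and 1.45 ± 0.0716 in CTR), Mrps10 (1.25 ± 0.170 FPKM in KO and 1.62 ± 0.103 in CTR) and Mrps17 (1.5 ± 0.366 FPKM in KO and 1.56 ± 0.448 in CTR). The deposited values per length thus differed widely among the members, and they depend on the gene lengths used. In CPM, which are not divided by length, Mrpl15 had 10.4 to 14.2 in KO and 10.0 to 18.1 in CTR. Mrpl34 had 26.2 to 34.6 CPM in KO and 28.8 to 43.5 CPM in CTR. The gene lengths behind the FPKM were 12658 bases for Mrpl15, 11986 for Mrps10 and 13836 for Mrps17 at the low end, and 607 for Mrpl34 at the high end.

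As a whole the members were slightly lower in KO, and most of that difference came with CTR 4 and CTR 5. The summed level of the large subunit was 1171, 1096, 1160, 1105 and 1107 CPM in KO 1 to KO 5, against 1165, 1131, 1192, 1508 and 1509 CPM in CTR 1 to CTR 5. The KO libraries overlapped CTR 1 to CTR 3, and CTR 4 and CTR 5 were high. The KO mean of 1130 ± 34.6 CPM was 86.7% of the CTR mean of 1300 ± 191 CPM (SD, n = 5 each), a log2 ratio of -0.21. The summed small subunit level was 553.9, 519.5, 571.4, 513.1 and 492.2 CPM in KO 1 to KO 5, against 541, 544.3, 573.7, 694.7 and 736.9 CPM in CTR 1 to CTR 5. Here too the genotypes overlapped and CTR 4 and CTR 5 stood above all others. The KO mean of 530 ± 32.0 CPM was 85.7% of the CTR mean of 618 ± 91.3 CPM, a log2 ratio of -0.22. Without CTR 4 and CTR 5 the log2 ratios were -0.04 for the large and -0.06 for the small subunit. Scaled by library size alone, with all libraries, they were -0.17 and -0.18 (large and small). These are bulk samples, in which fewer cells of a type and less RNA per cell cannot be told apart.

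**Figure D1:**
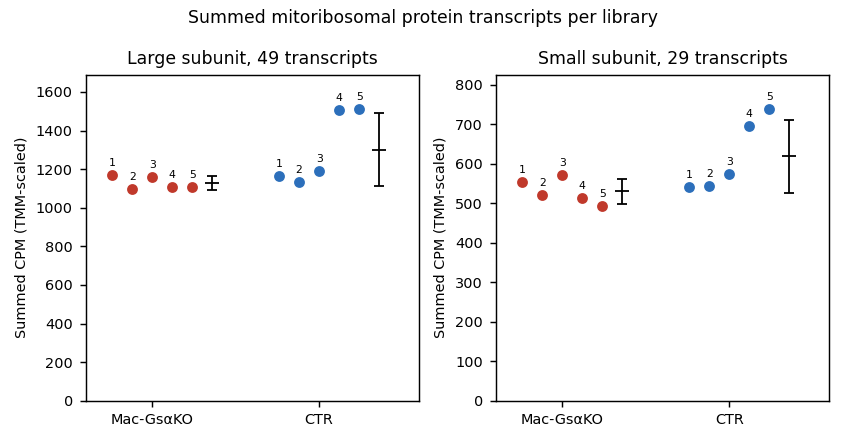
Summed level of the large subunit members (left, 49 genes) and of the small subunit members (right, 29 genes) in each library, in TMM-scaled CPM, with KO left of CTR in each panel. Points are libraries with their replicate number and bars give the mean ± SD. The ranges of KO and of CTR 1 to 3 overlap, with KO 2, KO 4 and KO 5 below CTR 1 to 3, and CTR 4 and CTR 5 lie above all others (1508 and 1509 CPM for the large subunit).

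Gene by gene, the log2 fold change of KO over CTR was below 0 for 46 of 49 large and 26 of 29 small subunit members, against 50.8% of the 13203 genes tested. The median was -0.17 for the large subunit and -0.23 for the small one, against -0.01 over all genes tested. The highest of the 10 libraries was CTR 4 or CTR 5 for 68 of the 78 members, or 87.2%, while over all genes tested that share was 38.1%. For 43 members CTR 4 and CTR 5 both exceeded every other library, a pattern that 11.3% of all genes tested had. Relative to a member's mean over the 10 libraries, the median deviation of the large subunit was 0.30 in CTR 4 and 0.28 in CTR 5 on the log2 scale, and that of the small subunit was 0.24 and 0.39 (CTR 4 and CTR 5). In the other 8 libraries these medians lay between -0.16 and 0.02. Without CTR 4 and CTR 5 the median log2 fold change was -0.01 for the large and -0.10 for the small subunit, with 26 of 49 and 19 of 29 members below 0, and that of all genes was 0.0. Of the 78 members 27 had the opposite direction in that fit (20 large, 7 small). The members' median coefficient of variation was 10.0% in KO and 18.5% in CTR, and it was lower in KO for 65 of 78 (83.3%), as it was for 71.6% of all genes tested. With CTR 4 and CTR 5 left out, it was 10.0% in KO and 8.68% in CTR, and lower in KO for 31 members (39.7%) and for 37.7% of all genes. The 5 proteins of the mitochondrial ribosome with other symbols that were tested did not overlap between the genotypes in their summed level. It was 143 to 159 CPM in KO and 165 to 220 CPM in CTR, with the maximum in CTR 4. None of these 5 was called singly. Of single genes tested 4.55% had all KO libraries below all CTR libraries, and no such share was computed for sums.

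**Figure D2:**
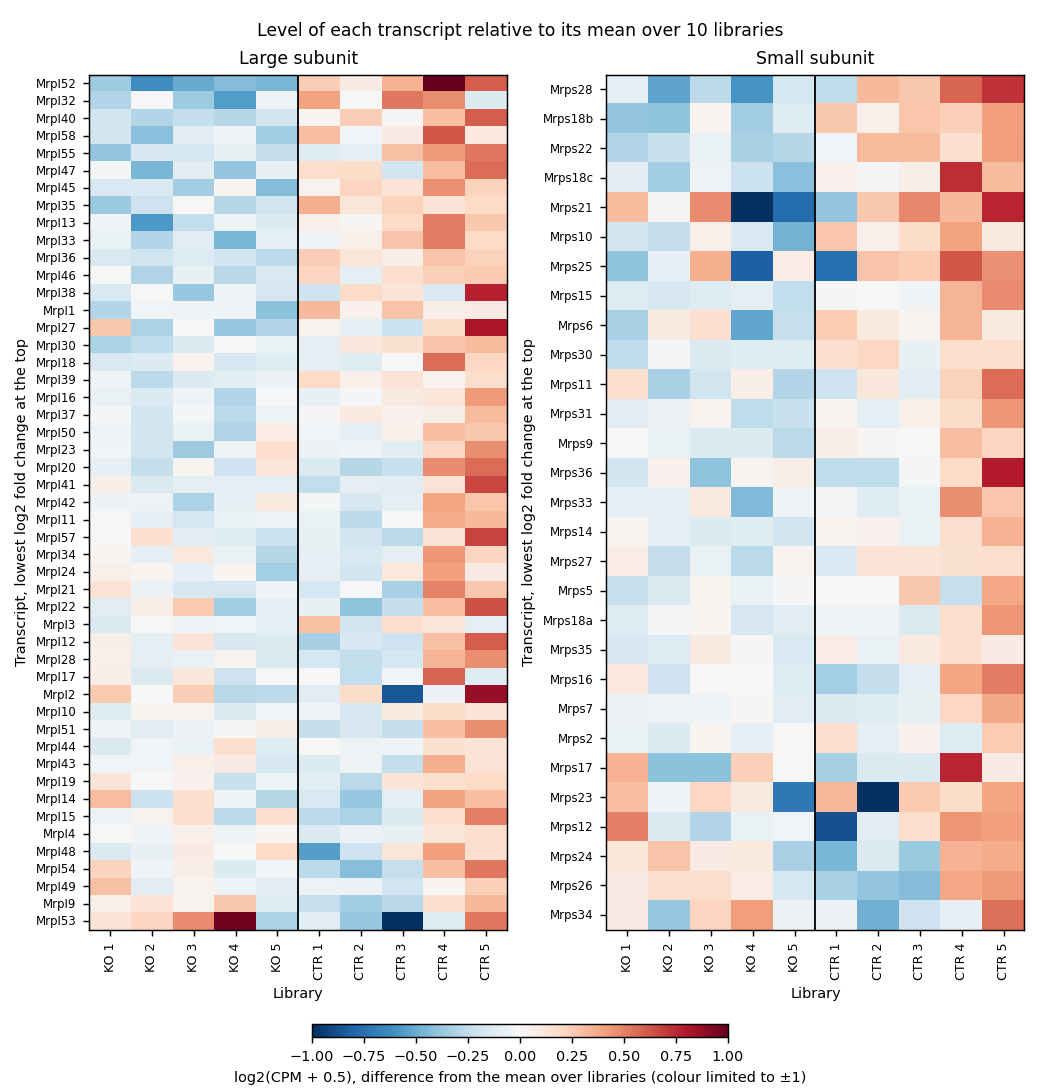
Level of each large (left) and small (right) subunit transcript in each library as the difference of log2(CPM + 0.5) from its mean over the 10 libraries, KO columns left of CTR columns, rows sorted by log2 fold change with the lowest at the top, and colours limited to ±1. The columns CTR 4 and CTR 5 are red for most rows. Rows near the top such as Mrpl52 and Mrpl36 are blue in the KO columns and red in all CTR columns, in part only faintly. Mrpl35 is similar, but is close to its mean in KO 3.

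Of the 78 members 6 (7.69%) passed the test at an adjusted p under 0.05 (edgeR quasi-likelihood test, Benjamini-Hochberg adjustment over all genes tested), and all were lower in KO. Over all genes tested 3.94% passed, 2.11% lower and 1.83% higher. In the large subunit 4 of 49 fell (8.16%), Mrpl52, Mrpl36, Mrpl35 and Mrpl40, and in the small subunit 2 of 29 fell (6.90%), Mrps18b and Mrps22. No member rose. All 6 were also called lower without CTR 4 and CTR 5, in a fit on a part of the same libraries. There 3.63% of genes were called lower. In either direction that fit called 8.97% of the members and 8.76% of all genes tested.

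Mrpl52 (ENSMUSG00000010406), a large subunit protein found only in mitochondria, had the largest fall. It stood at 21.0, 17.4, 18.9, 19.8 and 19.5 CPM in KO 1 to KO 5, against 32.0, 28.5, 34.4, 58.0 and 41.3 CPM in CTR 1 to CTR 5. All KO libraries were close together and below every CTR library, of which CTR 4 was the highest. The log2 fold change was -1.01 (SE 0.17, adjusted p = 0.0132), or 2.01-fold lower. It was -0.71 (adjusted p = 0.00431) without CTR 4 and CTR 5. Of the 10 fits that left out 1 library, the call was lost only without KO 2 (adjusted p of 0.05).

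Mrpl36 (ENSMUSG00000021607), the small zinc-binding protein of the large subunit, had 33.2, 32.1, 33.8, 32.3 and 30.8 CPM in KO 1 to KO 5, against 44.0, 40.3, 38.7, 45.1 and 43.5 CPM in CTR 1 to CTR 5. Both genotypes were narrow and did not overlap, and CTR 4 and CTR 5 were not apart from the other CTR libraries. Its log2 fold change was -0.38 (SE 0.08, adjusted p = 0.0246) with all libraries and -0.34 (adjusted p = 0.0239) without CTR 4 and CTR 5. The call was lost without KO 1, KO 2, KO 4 or CTR 3 (adjusted p up to 0.0751).

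Mrpl35 (ENSMUSG00000052962), a large subunit protein with a bacterial counterpart, had 12, 13.5, 15.6, 12.8 and 13.6 CPM in KO 1 to KO 5, against 20.3, 17.1, 18.5, 17.3 and 18.1 CPM in CTR 1 to CTR 5. The highest CTR library was CTR 1, and KO 3 came closest to the CTR range. Its log2 fold change of -0.43 (SE 0.10, adjusted p = 0.0370) was -0.46 (adjusted p = 0.0283) without CTR 4 and CTR 5. It was no longer called after a correction for gene length and GC content (-0.35, adjusted p = 0.0575), with library-size scaling (0.0614) or with no filter on low counts (0.0632), nor without KO 1, KO 2, KO 4, KO 5, CTR 1, CTR 3 or CTR 5 (adjusted p up to 0.100).

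Mrpl40 (ENSMUSG00000022706), found only in mitochondrial ribosomes and lost in the human 22q11 deletion, had 18.4, 17.0, 17.7, 17.1 and 18.3 CPM in KO 1 to KO 5, against 21.4, 24.9, 21.1, 25.9 and 32.1 CPM in CTR 1 to CTR 5. The KO libraries differed little among themselves, and CTR 5 was the highest. Its log2 fold change was -0.50 (SE 0.12, adjusted p = 0.0388) with all libraries and -0.34 (adjusted p = 0.0331) without CTR 4 and CTR 5. The call ended when CTR 2, CTR 3 or a single KO library was left out (adjusted p up to 0.108), and also with library-size scaling (0.0587) and with no filter on low counts (0.0667).

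Mrps22 (ENSMUSG00000032459), a small subunit protein found only in mitochondria in which human variants cause a mitochondrial disease, had 8.81, 9.27, 10.4, 8.61 and 8.85 CPM in KO 1 to KO 5, against 10.7, 13.7, 13.7, 12.2 and 14.7 CPM in CTR 1 to CTR 5. CTR 1 lay just above KO 3, so the genotypes were separate by a small margin. The log2 fold change of Mrps22 was -0.50 (SE 0.12, adjusted p = 0.0366) and -0.47 (adjusted p = 0.0413) without CTR 4 and CTR 5. Its call was lost without KO 1, KO 2, KO 4, KO 5, CTR 2, CTR 3 or CTR 5 (adjusted p up to 0.0977), with library-size scaling (0.0611) and with no filter on low counts (0.0642).

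Mrps18b (ENSMUSG00000024436) is one of 3 mammalian paralogues of a single bacterial small subunit protein. It had 13.2, 13.1, 17.8, 13.6 and 15.9 CPM in KO 1 to KO 5, against 21.1, 18.1, 21.2, 20.7 and 23.3 CPM in CTR 1 to CTR 5. KO 3 nearly reached CTR 2, and the CTR libraries were otherwise close together. The log2 fold change was -0.50 (SE 0.12, adjusted p = 0.0353), and -0.45 (adjusted p = 0.0484) without CTR 4 and CTR 5. Leaving out KO 1, KO 2, KO 4, CTR 1, CTR 3 or CTR 5 ended the call of Mrps18b (adjusted p up to 0.106), as did library-size scaling (0.0531) and no filter on low counts (0.059). The paralogue Mrps18c, which takes the bacterial protein's place in the small subunit, had 15.7 to 20.4 CPM in KO and 21.0 to 35.7 CPM in CTR (log2 fold change -0.49, SE 0.15, adjusted p = 0.0873), with CTR 4 the highest. Mrps18a, which despite its name sits in the large subunit, had 27.0 to 30.9 CPM in KO and 27.5 to 41.6 CPM in CTR (-0.17, SE 0.12, adjusted p = 0.413). With CTR 4 and CTR 5 left out, Mrps18c had -0.26 (adjusted p = 0.147) and Mrps18a 0.0016 (adjusted p = 0.992). Whether the 3 paralogues differed from each other in their response was not tested.

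**Figure D3:**
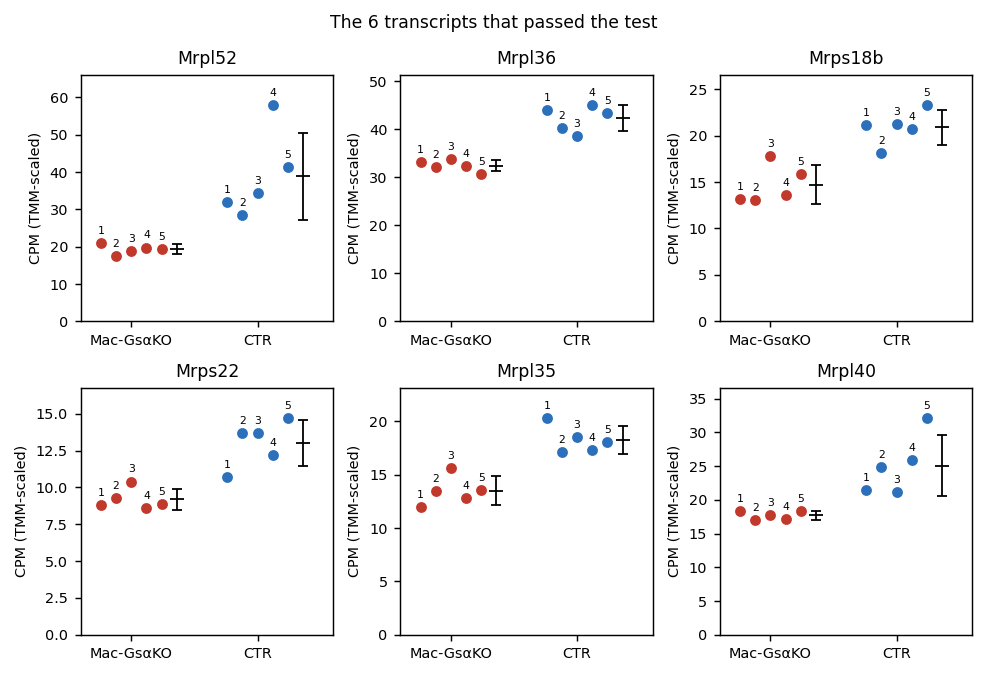
TMM-scaled CPM of the 6 members with an adjusted p under 0.05 in each library, KO left of CTR in each panel, with replicate numbers beside the points and bars for mean ± SD. In all 6 panels every KO library lies below every CTR library, with the widest gap for Mrpl52 (17.4 to 21.0 CPM in KO and 28.5 to 58.0 CPM in CTR).

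The promoters of the 6 members that fell are shown because nuclear genes for mitochondrial proteins are known to be regulated through sites for ETS factors such as GABP and for YY1. The 120 bases before each RefSeq transcription start on GRCm38.p6 are given on the strand of the gene, from 5′ to 3′. Capitals mark the letters CCGGAAG (ETS) or AAGATGGC (YY1), or their reverse complement.
Mrpl52, chr14:54426789-54426908, plus strand: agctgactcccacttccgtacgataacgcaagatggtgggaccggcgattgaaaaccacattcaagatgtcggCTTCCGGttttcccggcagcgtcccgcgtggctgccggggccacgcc
Mrpl36, chr13:73330889-73331008, plus strand: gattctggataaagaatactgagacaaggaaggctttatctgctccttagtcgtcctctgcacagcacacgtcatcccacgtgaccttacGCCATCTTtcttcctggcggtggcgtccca
Mrpl35, chr6:71823785-71823904, minus strand: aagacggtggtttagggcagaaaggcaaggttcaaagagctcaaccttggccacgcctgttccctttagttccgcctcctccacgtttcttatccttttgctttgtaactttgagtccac
Mrpl40, chr16:18876638-18876757, minus strand: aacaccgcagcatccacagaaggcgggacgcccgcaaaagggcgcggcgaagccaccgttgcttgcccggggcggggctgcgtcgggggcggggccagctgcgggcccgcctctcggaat
Mrps22, chr9:98601680-98601799, minus strand: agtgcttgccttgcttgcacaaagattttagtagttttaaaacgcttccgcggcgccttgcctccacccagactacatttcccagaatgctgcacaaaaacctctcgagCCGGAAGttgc
Mrps18b, chr17:35916441-35916560, minus strand: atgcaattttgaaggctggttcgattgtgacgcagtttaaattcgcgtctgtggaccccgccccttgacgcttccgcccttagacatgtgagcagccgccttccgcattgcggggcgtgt

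In the window from 250 bases before to 50 bases after the start, read on both strands, ETS letters were found for Mrpl52, Mrps22 and Mrps18b and YY1 letters for Mrpl36 and Mrpl35. Those of Mrps18b and Mrpl35 lie in the part of the window not printed, and Mrpl40 held neither motif. The table of promoters held 69 of the 78 members. ETS letters were present in 26 of these (37.7%) and YY1 letters in 12 (17.4%). Over the 9374 tested genes in that table the shares were 21.3% for ETS and 5.65% for YY1 letters. A match describes these letters and is not a measured binding site.

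Beyond the 6 called members, all 5 KO libraries lay below all 5 CTR libraries for others too, in total for 17 members (11 large, 6 small), against 4.55% of all genes tested. The others were Mrpl45, Mrpl33, Mrpl13, Mrpl58, Mrpl1, Mrpl39 and Mrpl37 in the large and Mrps10, Mrps18c, Mrps15 and Mrps9 in the small subunit. No member had all KO libraries above all CTR libraries, which 3.25% of genes had. At an unadjusted p under 0.05, 16 large and 10 small subunit members were lower and none was higher, against 11.9% lower and 10.0% higher over all genes. Without CTR 4 and CTR 5, 13 large and 6 small subunit members were lower at that threshold, and 4 large and 2 small were higher. In that fit 32.1% of the members and 26.1% of all genes passed it in either direction. DESeq2 called 15 members lower, where 5.23% of genes were called lower, and limma voom 13, where 6.76% were. Both sets included all 6 of the members above.

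Mrpl45, which binds the large subunit to the inner membrane, had 21.7, 21.7, 18.8, 24.4 and 17.7 CPM in KO 1 to KO 5, against 24.7, 28.0, 26.6, 33.3 and 28.2 CPM in CTR 1 to CTR 5. KO 4 came close to CTR 1, and the log2 fold change was -0.43 (SE 0.11, adjusted p = 0.0537). Mrpl58, a large subunit protein that is also a peptidyl-tRNA hydrolase and can free stalled ribosomes, had 9.48 to 12.5 CPM in KO and 12.6 to 20.0 CPM in CTR (-0.46, SE 0.14, adjusted p = 0.0872). Mrps10, a small subunit protein with a bacterial counterpart, had 12.1 to 17.6 CPM in KO and 17.6 to 22.6 CPM in CTR (-0.41, SE 0.12, adjusted p = 0.0703). The widest of these gaps in fold was that of Mrps28, a small subunit protein, with 9.21, 6.66, 8.11, 6.36 and 8.62 CPM in KO 1 to KO 5, against 8.16, 12.4, 11.9, 14.9 and 16.5 CPM in CTR 1 to CTR 5. CTR 1 fell inside the KO range, and the log2 fold change was -0.71 (SE 0.18, adjusted p = 0.0526). With the correction for length and GC content, under which 2.65% of genes were called lower, Mrps28 passed (-0.67, adjusted p = 0.0342), as did Mrps15 (-0.32, adjusted p = 0.0342). Mrpl33 (-0.41, adjusted p = 0.0727), Mrpl13 (-0.42, adjusted p = 0.0863) and Mrpl32 (-0.53, adjusted p = 0.0902) also missed the threshold. Mrpl32, which a mitochondrial protease matures before it enters the ribosome, overlapped between the genotypes, with 7.48 to 11.2 CPM in KO and 10.2 to 16.4 CPM in CTR. With CTR 4 and CTR 5 left out, none of Mrpl45, Mrpl58, Mrps10, Mrps28, Mrpl33, Mrpl13 and Mrpl32 passed (adjusted p between 0.0577 and 0.176).

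**Figure D4:**
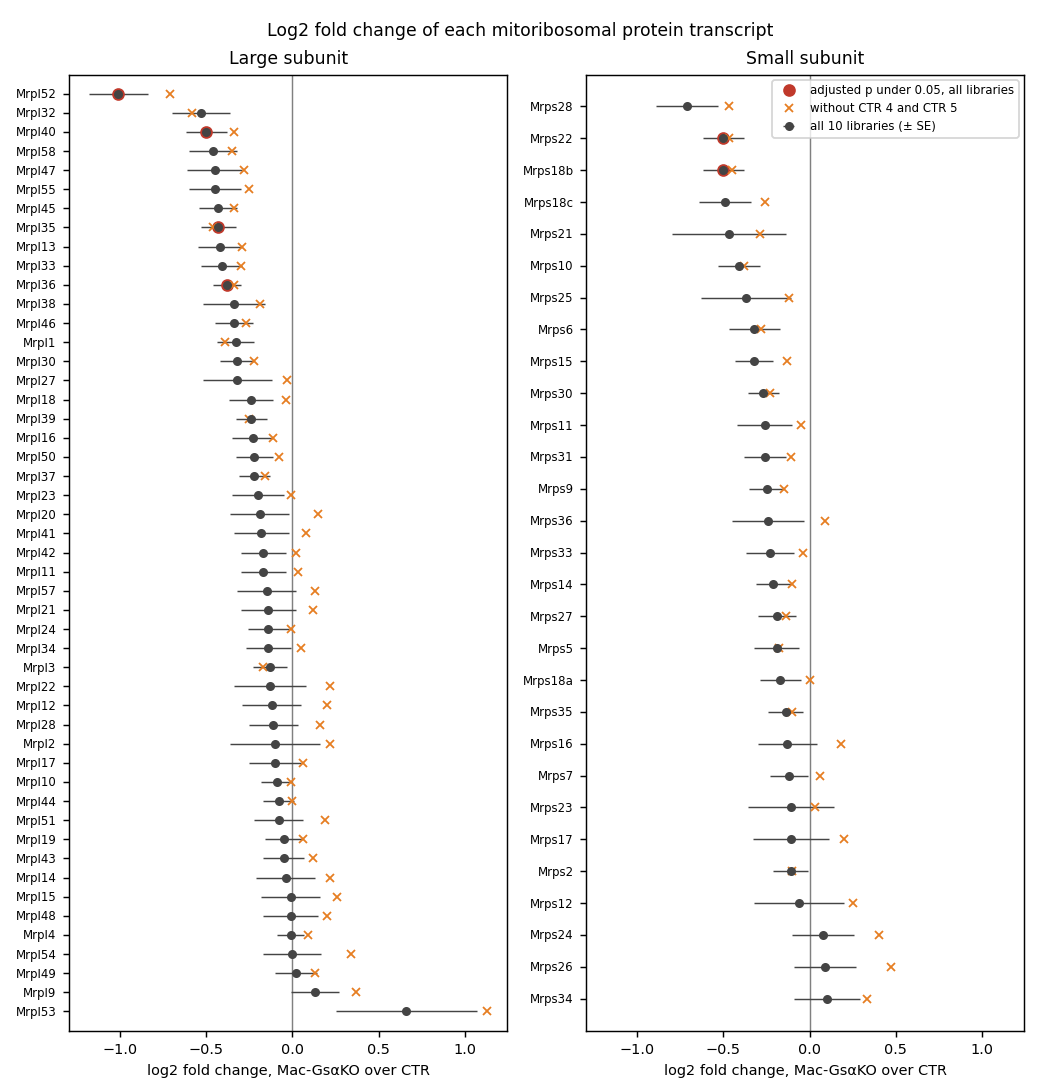
Log2 fold change of KO over CTR with its SE for every large (left) and small (right) subunit member, sorted. Circles are for all libraries, dark or, where the adjusted p was under 0.05, larger and red. Orange crosses are for the fit without CTR 4 and CTR 5. Most circles lie left of 0 (46 of 49 and 26 of 29), while the crosses scatter around it (medians -0.01 and -0.10).

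Of 15 members named for their role 2 passed, Mrps18b and Mrps22, where 3.94% of all genes tested passed. These 15 were chosen with earlier results of these data known, so their count is only a description. Of the other members named for their role, several were highest in CTR 4 and CTR 5. Mrpl12, the stalk protein that also binds mitochondrial RNA polymerase, had 37.3, 33.7, 39.1, 32.0 and 32.6 CPM in KO 1 to KO 5, against 28.4, 32.0, 30.9, 43.9 and 54.6 CPM in CTR 1 to CTR 5. CTR 1, CTR 2 and CTR 3 were at or below the lowest KO library, and CTR 4 and CTR 5 above them. The log2 fold change was -0.12 (SE 0.17, adjusted p = 0.71) with all libraries and 0.20 (adjusted p = 0.194) without CTR 4 and CTR 5. Mrpl11, which forms the base of the stalk, had 20.1 to 22.9 CPM in KO and 18.9 to 29.6 CPM in CTR (-0.17, SE 0.13, adjusted p = 0.458). Mrpl28, on the large subunit, had 30.5 to 34.9 CPM in KO and 28.5 to 46.6 CPM in CTR (-0.11, SE 0.14, adjusted p = 0.677). Mrps16, of the small subunit, had 14.7 to 18.4 CPM in KO and 13.4 to 24.6 CPM in CTR (-0.13, SE 0.17, adjusted p = 0.676). Mrps7, in the head of the small subunit, had 26.5 to 28.9 CPM in KO and 26.0 to 37.3 CPM in CTR (-0.12, SE 0.11, adjusted p = 0.572). For Mrpl11, Mrpl28, Mrps16 and Mrps7 the 2 highest libraries were CTR 4 and CTR 5, and without these the log2 fold changes were 0.03, 0.16, 0.18 and 0.06 in the same order. Mrpl3, near the site of peptide bond formation, had 26.5 to 29.3 CPM in KO and 25.8 to 36.1 CPM in CTR, with CTR 1 the highest (-0.13, SE 0.10, adjusted p = 0.476). Mrpl44, which resembles an RNase, had 23.1 to 28.8 CPM in KO and 24.6 to 28.4 CPM in CTR (-0.08, SE 0.09, adjusted p = 0.644). Mrps5, at the mRNA entry, had 12 to 14.3 CPM in KO and 11.9 to 18.5 CPM in CTR (-0.19, SE 0.13, adjusted p = 0.421). The fit without CTR 4 and CTR 5 gave -0.17 for Mrpl3, -0.0045 for Mrpl44 and -0.18 for Mrps5.

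Few members had a log2 fold change above 0, 3 in each subunit. In the large subunit these were Mrpl53 (0.66, SE 0.41, adjusted p = 0.370), Mrpl9 (0.13, SE 0.14, adjusted p = 0.639) and Mrpl49 (0.02, SE 0.12, adjusted p = 0.927). In the small subunit they were Mrps34 (0.10, SE 0.19, adjusted p = 0.802), Mrps26 (0.09, SE 0.18, adjusted p = 0.812) and Mrps24 (0.08, SE 0.18, adjusted p = 0.832). Mrps34 had 16.9 to 29.7 CPM in KO and 15.7 to 32.6 CPM in CTR, and Mrps24 had 16.4 to 25.2 CPM in KO and 14.9 to 26.8 CPM in CTR, with overlap between the genotypes for both. Mrps26 had 25.5, 27.2, 27.2, 25.3 and 21.2 CPM in KO 1 to KO 5, against 19.1, 18.2, 17.7, 31.6 and 32.5 CPM in CTR 1 to CTR 5. The KO libraries lay between CTR 1 to CTR 3, which were low, and CTR 4 and CTR 5, which were high. Mrps26 passed as higher in KO without CTR 4 and CTR 5 (0.47, adjusted p = 0.0234), the only member to do so, where 5.13% of genes were called higher. Mrpl9 had 24.5 to 32.5 CPM in KO and 21.0 to 34.0 CPM in CTR, and in that fit 0.37 (adjusted p = 0.0511). Mrpl53 had 1.13, Mrpl49 0.13, Mrps34 0.33 and Mrps24 0.40 in that fit (adjusted p between 0.106 and 0.530).

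Other members varied widely among the libraries of both genotypes, several of them in libraries other than CTR 4 and CTR 5. Mrps21, a small subunit protein with a bacterial counterpart, had 25.6, 20.6, 28.6, 7.09 and 11.8 CPM in KO 1 to KO 5, against 15.5, 24.8, 28.7, 25.8 and 35.0 CPM in CTR 1 to CTR 5. KO 4, KO 5 and CTR 1 were low, and its coefficient of variation was 48.6% in KO and 27.3% in CTR. Mrps25 had 18.0, 22.6, 30.8, 13.4 and 25.2 CPM in KO 1 to KO 5, against 14.0, 29.3, 28.7, 37.0 and 33.1 CPM in CTR 1 to CTR 5. KO 4 and CTR 1 were the lowest for Mrps25 as well as among the 3 lowest for Mrps21. Mrps23 was low in KO 5 (18.0 CPM, against 29.0 to 36.9 in the other KO libraries) and in CTR 2 (14.7 CPM, against 34.1 to 39.5 in the other CTR libraries). Mrpl2, at the core of the peptidyl transferase region, ranged from 16.3 to 23.9 CPM in KO and from 10.8 in CTR 3 to 36.7 CPM in CTR 5. Mrps12, the decoding centre protein, had 8.52, 5.23, 4.67, 5.57 and 5.74 CPM in KO 1 to KO 5, against 2.96, 5.37, 6.66, 8.11 and 7.92 CPM in CTR 1 to CTR 5 (log2 fold change -0.06, SE 0.26, adjusted p = 0.914). The genotypes overlapped for each of these members, and the direction of Mrpl2, Mrps12 and Mrps23 turned without CTR 4 and CTR 5 (0.22, 0.25 and 0.03). Mrps21 had -0.47 and Mrps25 -0.37 with all libraries, and -0.29 and -0.12 without CTR 4 and CTR 5 (Mrps21 and Mrps25). Mrps17 had 15.4 to 26.4 CPM in KO and 16.3 to 35.2 CPM in CTR, with CTR 4 the highest. Mrpl53, the member of lowest counts, had 2.20, 2.36, 2.92, 4.33 and 1.49 CPM in KO 1 to KO 5, against 1.79, 1.40, 0.451, 1.76 and 3.05 CPM in CTR 1 to CTR 5, a 9.60-fold range from 8 counts in CTR 3 to 77 in KO 4.

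**Figure D5:**
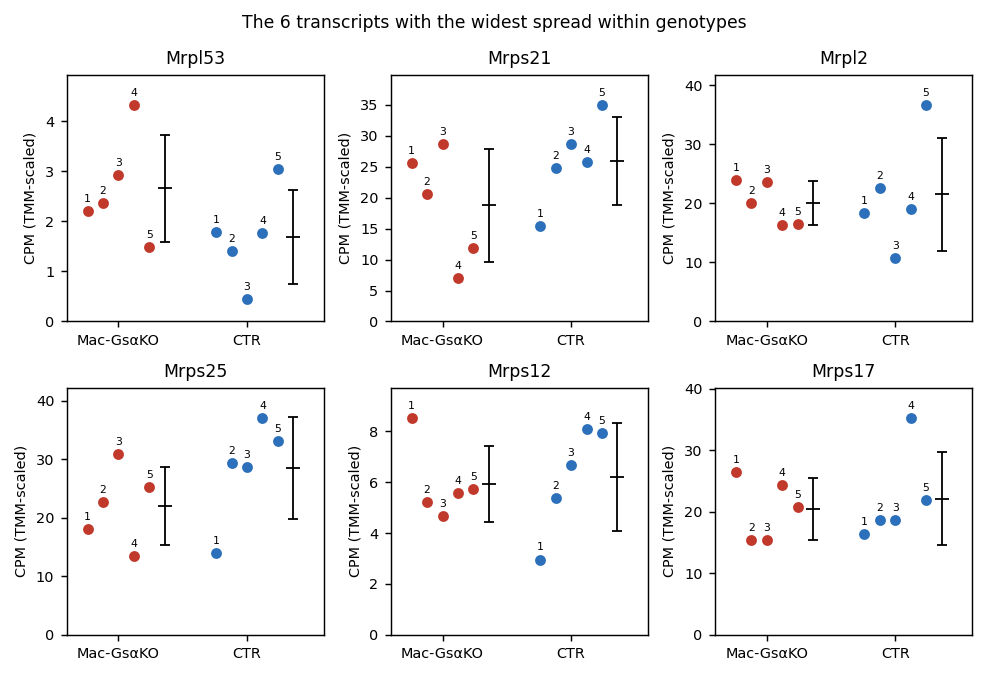
TMM-scaled CPM of the 6 members with the highest coefficient of variation within genotypes, KO left of CTR in each panel, with replicate numbers beside the points and bars for mean ± SD. The genotypes overlap in every panel. The lowest library is KO 4 for Mrps21 (7.09 CPM) and Mrps25, CTR 3 for Mrpl2 and Mrpl53, and CTR 1 for Mrps12 (2.96 CPM).

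Some of these values can hold reads of other genes, since the strand setting of the counting is not given. In GENCODE M21, 33 of 78 members shared exon bases with another gene and 23 with a protein-coding one. Of Mrps25 69.8% of exon bases overlapped Nr2c2 on the opposite strand, and of Mrps34 63.4% overlapped Mapk8ip3 on the opposite strand. Mrpl53 shared 88.0% of its exon bases with the predicted gene Gm42688 on the same strand. Among the members that fell, Mrpl36 shared 2.58% with Ndufs6 and Mrps18b 30.5% with the antisense gene Gm16279, which itself stood at 1.02 CPM in KO and 1.38 CPM in CTR. Mrpl52, Mrps22, Mrpl35 and Mrpl40 shared none. Of the pseudogenes left out, Mrpl23-ps1 had 19.1 ± 2.01 CPM in KO and 24.7 ± 6.18 CPM in CTR (SD, n = 5 each, adjusted p = 0.187), and reads of Mrpl23 and its pseudogene may be split between them. By length the members had a median log2 fold change of -0.19 for the 39 up to the median length of 3077 bases and of -0.20 for the 39 above it. These medians were 0.0 for the shorter and -0.10 for the longer members without CTR 4 and CTR 5.

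Other parts of mitochondrial translation were set beside the members, with the calls of the same test. None of the 5 mitochondrial ribosome proteins with other names passed (median log2 fold change -0.20, and -0.05 without CTR 4 and CTR 5). The lowest p-values there were those of Dap3 (-0.35, adjusted p = 0.113) and Aurkaip1 (-0.35, adjusted p = 0.123), both of the small subunit. Mrps36, counted above by its symbol, has since been renamed Kgd4 for its place in α-ketoglutarate dehydrogenase. None of 26 factors of ribosome assembly and rRNA modification passed (median -0.10). Without CTR 4 and CTR 5 the median of these factors was 0.01, and Mettl17 was called higher (0.54, adjusted p = 0.0298). Among these Tfb1m, which methylates the small subunit rRNA, had 3.48 to 5.69 CPM in KO and 6.13 to 7.51 CPM in CTR without overlap (-0.57, SE 0.15, adjusted p = 0.0537). Fastkd2, an RNA-binding protein needed for the large rRNA, had -0.37 (adjusted p = 0.143).

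Of 15 mitochondrial translation factors 1 rose and none fell (median -0.13, both with and without CTR 4 and CTR 5). Oxa1l, the insertase that takes new proteins from the mitochondrial ribosome into the inner membrane, had 82.3, 92.1, 76.0, 79.8 and 65.6 CPM in KO 1 to KO 5, against 56.1, 50.7, 52.8, 63.7 and 66.8 CPM in CTR 1 to CTR 5. KO 5 overlapped CTR 5. Its log2 fold change was 0.45 (SE 0.11, adjusted p = 0.0444), and 0.58 (adjusted p = 0.0139) without CTR 4 and CTR 5. Leaving out any 1 of KO 1 to KO 4 or of CTR 1 to CTR 3 ended the call of Oxa1l (adjusted p up to 0.126). None of 20 mitochondrial aminoacyl-tRNA synthetases and related amidotransferase genes passed (median -0.09, and -0.06 without CTR 4 and CTR 5). The lowest p-values among them were those of Rars2 (-0.34, adjusted p = 0.0909) and Gatb (-0.25, adjusted p = 0.122). None of 12 genes of mitochondrial DNA transcription and maintenance passed (median -0.11, both with and without CTR 4 and CTR 5). Clpp, a matrix protease subunit, was at -0.41 (adjusted p = 0.0968) and Ssbp1, the single-strand DNA binding protein, at -0.26 (adjusted p = 0.118). Of 8 nuclear regulators of mitochondrial genes none passed (median 0.05). Without CTR 4 and CTR 5 the median of these regulators was 0.1, and Esrra was called higher (0.46, adjusted p = 0.0101). Esrra and Mettl17 were named after their values were seen. Yy1, whose motif letters were counted in the promoters, had 89.1 ± 9.85 CPM in KO and 72.7 ± 5.44 CPM in CTR (0.29, SE 0.09, adjusted p = 0.0987), and Pprc1, a coactivator, had -0.30 (adjusted p = 0.324).

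Of 15 rRNAs and mRNAs that mitochondrial DNA encodes 5 fell and none rose, with a median log2 fold change of -0.54. mt-Nd2 had 449 ± 40.6 CPM in KO and 724 ± 132 CPM in CTR (-0.69, SE 0.12, adjusted p = 0.0169), and mt-Nd4 had 681 ± 30.2 CPM in KO and 993 ± 141 CPM in CTR (-0.54, SE 0.10, adjusted p = 0.0169). Both encode subunits of complex I and lost their call without KO 1 or KO 2 (adjusted p up to 0.0582). The others that fell were mt-Cytb (-0.58, adjusted p = 0.0313), mt-Nd1 (-0.63, adjusted p = 0.0315) and mt-Rnr1 (-0.65, adjusted p = 0.0483), the small subunit rRNA, which was named after its value was seen. The first 2 of these lost their call without KO 1, KO 2, KO 3, KO 4 or CTR 3 (adjusted p up to 0.0955), and mt-Rnr1 without any 1 library other than KO 3 and CTR 4 (adjusted p up to 0.132). Without CTR 4 and CTR 5 the median of these RNAs was -0.60, with 8 called lower, and with the length and GC correction it was -0.31. Whether polyadenylated RNA was selected is not given in the sources used here. Among 77 nuclear subunits of the respiratory chain and ATP synthase 7 fell and none rose with all libraries. Without CTR 4 and CTR 5, 8 of these subunits were called lower and 4 higher. Their medians were -0.20 with and -0.04 without CTR 4 and CTR 5, and those of the members -0.19 and -0.04. Among 80 cytosolic ribosomal proteins 3 fell (Rps7, Rps27l and Rpl11) and none rose with all libraries, with a median of 0.01. Without CTR 4 and CTR 5, 24 of them were called higher and 4 lower, with a median of 0.24. Over all genes tested 2.11% were called lower and 1.83% higher with all libraries, and 3.63% lower and 5.13% higher without CTR 4 and CTR 5.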

How the data were processed

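Bulk RNA-seq of 10 libraries was analysed, 5 of Mac-GsαKO and 5 of CTR macrophages. The authors deposited raw gene counts and FPKM. Per the submitters' processing notes CASAVA 1.8, HISAT2, SAMtools 1.3.1, edgeR and GRCm39 were used. They name no counter, annotation or strand setting. The deposited FPKM equal counts over gene length and library total (relative deviation at most 9.65e-06 for genes with at least 50 counts), which gave the length. Symbols came from a list of gene names matched by Ensembl identifier (53274 of 53465 genes). Biotypes, GC content and exon overlaps came from GENCODE M21 on GRCm38, and promoters from RefSeq on GRCm38.p6.

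Counts were tested in R 4.3.3 with edgeR 4.0.16 (filterByExpr, 13203 genes with 99.9% of counts; TMM scaling; quasi-likelihood test, two-sided, genotype as the only term; Benjamini-Hochberg adjustment over all genes tested, threshold 0.05). CPM are on TMM-scaled library sizes. Only the CPM minimum of the member rule used plain library totals. The biological coefficient of variation was 0.200. Gnas was also compared by an exact permutation test. A count of 0 allows up to 3 counts, or 0.156 to 0.192 CPM per library, for counting error only. Alternatives were other scalings and filters, DESeq2 1.42.0, limma 3.58.1 (voom with quality weights), a replicate block, a length and GC correction (mgcv 1.9.3), leaving out each library, and leaving out CTR 4 and CTR 5. The test was also run on simulated counts, drawn independently for each gene and library. These held no shared departure of CTR 4 and CTR 5, so that run does not cover it.

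The members, gene lists, motifs and the rule for named genes were chosen with earlier results of these data known. The rule named 15 members for their role, then all called members, and per subunit the 6 of lowest p, the 3 highest and 3 lowest log2 fold changes and FPKM. Of each pathway list it named up to 4 called genes, or otherwise the 2 of lowest p. Mrpl2 and Mrps25 (wide spread) and the members without overlap between genotypes were named after their values were seen. Kgd4 and Mtrfr were not matched to a row by those symbols.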

Additional observations from a re-analysis of the deposited data

Results flagged for a closer look

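Of 116 groups of 5 libraries examined (each named member or list gene within a genotype), 4 had 1 library far from the others by Dixon's criterion (gap over range above 0.71), where chance gives about 1 in 20. Mrps12 stood at 8.52 CPM in KO 1, against 4.67 to 5.74 CPM in the other KO libraries. Mrps23 stood at 14.7 CPM in CTR 2, against 34.1 to 39.5 CPM in the other CTR libraries. Mrps30, which sits in the large subunit despite its symbol, stood at 26.5 CPM in CTR 3, against 31.4 to 32.4 CPM in the other CTR libraries, and this 1 library brought its range into that of KO (23.4 to 27.7 CPM, log2 fold change -0.27, adjusted p = 0.107 by the edgeR quasi-likelihood test). Aurkaip1 stood at 113 CPM in CTR 4, against 79.4 to 87.9 CPM in the other CTR libraries.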

How the results depend on the processing

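With all libraries 520 genes were called, 4 of the large and 2 of the small subunit. The counts in this order were 261, 2 and 0 with no filter on low counts, 1289, 10 and 5 by DESeq2, and 1919, 10 and 3 by voom. The median log2 fold changes by voom were -0.05 (large) and -0.13 (small), against -0.17 and -0.23 in the main fit. With library-size scaling 2 large and 0 small subunit members were called. The length and GC correction gave 3 and 4. Equal replicate numbers did not pair the libraries (correlations of deviations from -0.126 to 0.0582, and 0 libraries correlated best with their own number). With the replicate block the counts were 104, 1 (Mrpl52) and 0, and with the block and the length and GC correction 205, 1 and 0. Without CTR 4 and CTR 5, 1185 genes were called, the median of the large subunit was -0.01, and the log2 ratios of summed levels were -0.04 (large) and -0.06 (small). With each library left out in turn, 62 to 868 genes were called, 0 to 4 of the large and 0 to 2 of the small subunit, with medians of -0.23 to -0.11 and -0.28 to -0.14. The cause of these changes was not tested.

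Among the members named by the rule, values near 0 changed sign. Mrpl54 had 0.0023 with DESeq2 size factors, 0.04 with library size and with the block, 0.0031 with the CPM filter, 0.002 by DESeq2, 0.24 by voom and 0.34 without CTR 4 and CTR 5. Mrpl15 had 0.03 with library size, 0.02 with the block, 0.01 with the block and the length and GC correction, 0.16 by voom and 0.26 without CTR 4 and CTR 5. By voom Mrpl12 had 0.13, Mrpl28 0.09, Mrpl34 0.01, Mrpl43 0.11, Mrps12 0.23, Mrps16 and Mrps17 0.10, Mrps23 0.01 and Mrps7 0.02. Without CTR 4 and CTR 5 Mrpl11 had 0.03, Mrpl12 0.20, Mrpl28 0.16, Mrpl34 0.05, Mrpl43 0.12, Mrps12 0.25, Mrps16 0.18, Mrps17 0.20, Mrps18a 0.0016, Mrps23 0.03 and Mrps7 0.06. With 1 library left out the ranges of these members that crossed 0 were -0.21 to 0.05 (Mrpl12), -0.08 to 0.15 (Mrpl15), -0.18 to 0.01 (Mrpl28), -0.11 to 0.05 (Mrpl43), -0.05 to 0.09 (Mrpl49), -0.10 to 0.16 (Mrpl54), -0.24 to 0.06 (Mrps12), -0.23 to 0.00071 (Mrps16), -0.22 to 0.12 (Mrps17), -0.29 to 0.03 (Mrps23), -0.02 to 0.20 (Mrps24), -0.0016 to 0.23 (Mrps26) and -0.004 to 0.29 (Mrps34).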
